A study of Mus musculus with 28 samples.

Results

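Scavenger and pattern uptake receptors are surface and endosomal proteins with which macrophages bind oxidised lipoproteins, microbial sugars, endotoxin and dying cells. The 9 genes described here were taken as a list by symbol, chosen with earlier results of these data known: Cd36, Msr1, Marco, Scarb1, Cd68, Mrc1, Clec7a, Lrp1 and Cd14, out of 55487 gene IDs in each library. Poly(A) RNA had been sequenced from 28 libraries of wild-type mouse bone marrow derived macrophages (progenitors of the marrow matured in culture), in 7 groups of 4. The series asks how the uptake of apoptotic T cells (efferocytosis) changes macrophage transcripts. Under IFN-γ (50 ng/mL, 48 h) and under IL-10 (50 ng/mL, 48 h) there were macrophages sorted as having taken up regulatory T cells (Treg-phagocytic), conventional CD4+ T cells (Tconv-phagocytic) or neither (non-phagocytic). The T cells had been made apoptotic with ATP/NAD+ and stained with a fluorescent antibody to CD4. Uptake was sorted and not assigned, so a response to uptake and an earlier difference of the sorted cells cannot be told apart. The seventh group, M0, had been cultured for 48 h without polarization. Whether M0 cells met T cells or were sorted is not in their labels, so against M0 the cytokine, the co-culture and the sort cannot be told apart. Names of phagocytic libraries such as Ax647-2 give the antibody's dye and a number, both from the titles. For all 8 Treg-phagocytic libraries the title and the library name give different dyes. The labels do not say whether libraries of a group came from separate mice or cultures, so p-values measure the spread between these libraries, which may be technical.

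The macrophage label was checked with 10 marker genes, whose summed level was 15600 to 20200 TPM, with none of them at 0 in all libraries of a group. Most of that sum was 1 gene, Lyz2, at 12756 to 18393 TPM, and Cx3cr1 of the same list was at 0.03 to 1.85 TPM. TPM is a share of transcripts, per gene length, scaled to 1 fixed total for each library. A list of 11 T cell genes summed to 53.7 to 139 TPM in M0, to 81.5 to 208 TPM under IL-10 and to 454 to 855 TPM under IFN-γ, where the non-phagocytic libraries (454 to 792) overlapped both phagocytic groups. Markers of stromal cells (6 genes) summed to 126 to 130 TPM in IL-10 Tconv-phagocytic, 66.4 to 72.9 in IL-10 non-phagocytic, 22.7 to 26.4 in IL-10 Treg-phagocytic and 93.2 to 109 in M0 libraries, and to 1.5 to 5.99 under IFN-γ. Sequencing depth, relative to the deepest library, was 11.2% to 24.2% under IFN-γ, 49.7% to 91% under IL-10 and 68.9% to 100% in M0. Low genes are therefore less precise under IFN-γ, and depth and cytokine cannot be told apart. In bulk libraries such as these, fewer cells with a transcript and less RNA per cell cannot be told apart either.

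As background, the members belong to several families. Msr1 (scavenger receptor A) and Marco are collagen-like class A scavenger receptors that bind modified lipoproteins and bacteria. Cd36 and Scarb1 (SR-BI) are class B receptors: Cd36 takes up oxidised lipoproteins and fatty acids and helps to bind apoptotic cells, and Scarb1 exchanges cholesterol with high density lipoprotein. Cd68 (macrosialin) is a heavily glycosylated protein of late endosomes and lysosomes and a standard macrophage marker. Mrc1 (CD206) and Clec7a (dectin-1) are C-type lectins, for mannose-bearing glycoproteins and for fungal beta-glucan. Lrp1 is a large endocytic receptor of the LDL receptor family that clears protease complexes and takes part in the uptake of dying cells, and Cd14 hands endotoxin to the receptor Tlr4 and also binds apoptotic cells. In textbook accounts of polarization, Mrc1 is a marker of alternatively activated macrophages and IFN-γ the classical activator.

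The genes lie, on GRCm38 (mm10) with GENCODE vM21 gene models, at chr5:17781690-17888801 (Cd36, ENSMUSG00000002944, minus strand), chr8:39581685-39642673 (Msr1, ENSMUSG00000025044, minus), chr1:120474538-120505024 (Marco, ENSMUSG00000026390, minus) and chr5:125277087-125341094 (Scarb1, ENSMUSG00000037936, minus). The others lie at chr11:69664213-69666153 (Cd68, ENSMUSG00000018774, minus), chr2:14229392-14332057 (Mrc1, ENSMUSG00000026712, plus), chr6:129461591-129472779 (Clec7a, ENSMUSG00000079293, minus) and chr10:127538161-127621148 (Lrp1, ENSMUSG00000040249, minus). The ID of Cd14 is ENSMUSG00000051439. All are annotated as protein coding except Clec7a, which that annotation lists as a polymorphic pseudogene.

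Promoter windows of 250 bases before a RefSeq start (GRCm38.p6) were found for 6 members. Those of 3 members are printed because these genes carry the opposed cytokine patterns below: Mrc1 and Clec7a moved in opposite directions under IL-10, and Marco was the member that was higher under IFN-γ than in M0. Each reads 5′ to 3′ on the strand of the gene, and capitals mark the core motif of PU.1, the macrophage lineage factor (GAGGAA or its reverse complement). The windows are chr2:14229164-14229413 (Mrc1, plus strand), chr6:129472780-129473029 (Clec7a, minus strand) and chr1:120505025-120505274 (Marco, minus strand).
Mrc1: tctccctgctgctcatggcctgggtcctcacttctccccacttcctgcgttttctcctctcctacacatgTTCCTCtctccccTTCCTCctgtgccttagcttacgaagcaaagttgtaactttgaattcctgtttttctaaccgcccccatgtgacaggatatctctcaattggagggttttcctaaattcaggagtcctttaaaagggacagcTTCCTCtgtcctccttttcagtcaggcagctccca
Clec7a: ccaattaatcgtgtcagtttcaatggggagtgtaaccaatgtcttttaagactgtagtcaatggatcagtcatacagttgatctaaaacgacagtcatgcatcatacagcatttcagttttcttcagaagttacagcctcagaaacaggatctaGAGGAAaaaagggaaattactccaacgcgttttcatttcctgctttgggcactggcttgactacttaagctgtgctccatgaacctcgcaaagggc
Marco: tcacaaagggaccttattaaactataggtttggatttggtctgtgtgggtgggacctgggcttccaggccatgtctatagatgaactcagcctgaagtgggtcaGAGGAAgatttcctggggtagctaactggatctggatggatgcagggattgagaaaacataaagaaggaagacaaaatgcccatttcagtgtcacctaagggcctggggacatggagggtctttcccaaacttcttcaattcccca

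The Mrc1 window held 3 PU.1 core matches, all on the other strand (capitals TTCCTC), and the Clec7a and Marco windows 1 each. On both strands, this motif was present in 23.3% of 32851 RefSeq windows of this length. Cd68 also held 1 PU.1 core match and 2 matches of the AP-1 motif (TGANTCA, in 6.75% of all windows), and no matches overlapped. Neither motif was found in the Cd36 and Lrp1 windows. These matches are letters in a window and no measure of binding.

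All 9 members passed the filter on low values (at least 1 TPM in at least 4 of the 28 libraries), as did 13631 genes in all. Cd68 was the highest of the 9 in 28 of 28 libraries and Marco the lowest in 28 of 28, and levels can be compared between genes because TPM is per length. In M0 the order of mean TPM was Cd68, Cd36, Cd14, Lrp1, Clec7a, Msr1, Mrc1, Scarb1 and Marco, and no neighbours in that order overlapped. The order changed with the cytokine. Cd14 took the second place from Cd36 in IFN-γ libraries, with overlapping ranges of the pair in the non-phagocytic and Treg-phagocytic groups, and Lrp1 took it in IL-10 libraries. Clec7a was above Mrc1 in 16 of 16 M0 and IFN-γ libraries and below Mrc1 in 12 of 12 IL-10 libraries. Msr1 and Mrc1, neighbours in all 3 IL-10 groups, overlapped there, as did Msr1 and Scarb1 in the IFN-γ non-phagocytic and Treg-phagocytic groups.

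**Figure D1:**
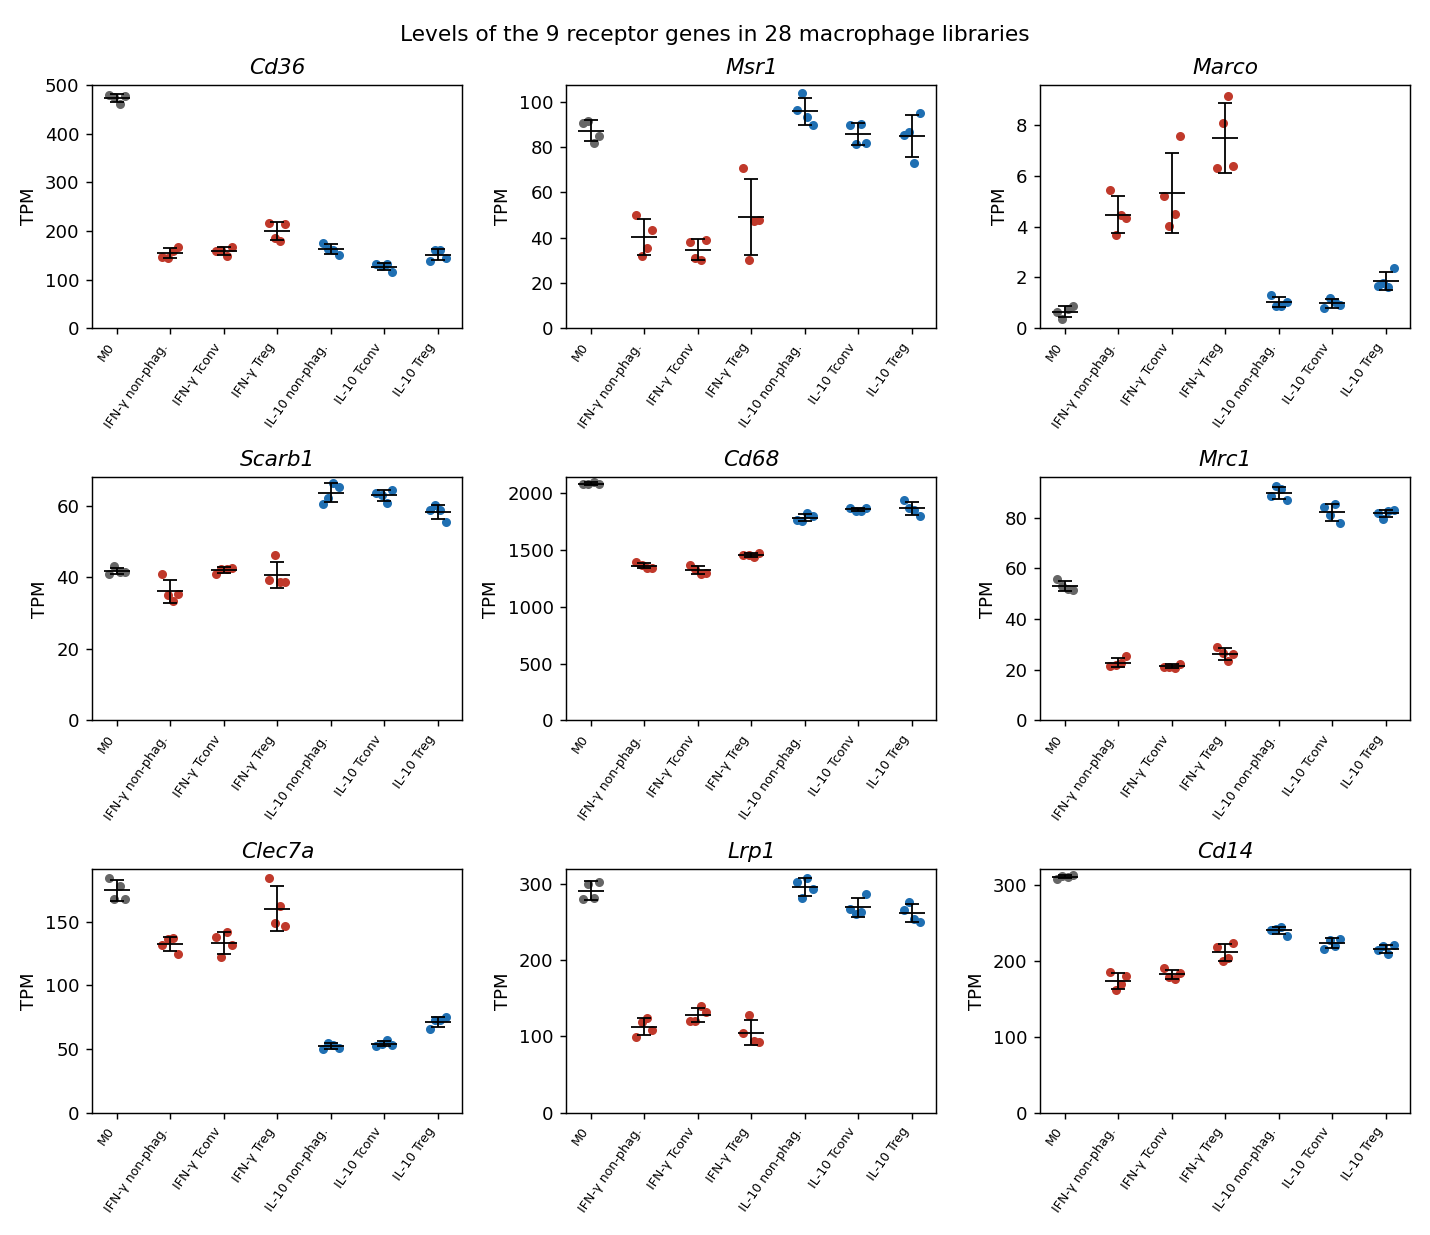
Level of each receptor gene (vertical axis, TPM as deposited, from 0) in 28 libraries by group (horizontal axis). Points are libraries (gray M0, red IFN-γ, blue IL-10), and black bars are the mean ± SD of 4 libraries. The Mrc1 and Clec7a panels show opposite orders of the red and blue points, and Marco stays under 10 TPM everywhere.

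For the tests each TPM was divided by a scaling factor of its library, 1 was added and log2 taken, so a log2 fold change understates the change of a gene as low as Marco. A gene was called where the Benjamini-Hochberg adjusted p from limma, over all 13631 genes, was under 0.05. Each comparison was fitted with the libraries of the groups it names and no others. The scaling matters most where IFN-γ is compared with IL-10 or M0. In non-phagocytic libraries the median log2 fold change over all genes was -0.26 without it and -0.02 with it for IFN-γ against IL-10. It was -0.24 and -0.02 for IFN-γ against M0. For IFN-γ against IL-10 it was -0.26 and -0.09 in Treg-phagocytic and -0.15 and -0.02 in Tconv-phagocytic libraries, and for the difference of the Tconv differences between the cytokines 0.11 and -0.01. Within IL-10 the median also moved, from -0.071 to -0.001 for Treg uptake against none and from -0.063 to 0.008 for Tconv uptake against none. The values below are scaled unless stated otherwise.

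Against M0, the non-phagocytic IFN-γ macrophages had less RNA of most members. Of the 9, 1 was higher (Marco) and 7 were lower, where 53.1% of all tested genes were called, 26.4% higher and 26.7% lower. The median log2 fold change of the members was -0.57, against -0.02 over all genes. Non-phagocytic IL-10 macrophages split: 2 members were higher (Mrc1 and Scarb1) and 4 lower (Cd36, Cd68, Clec7a and Cd14), where 26.6% of genes were called, 13.7% higher and 12.9% lower. Their median was 0.01, against 0.00 over all genes. Both comparisons share the 4 M0 libraries, so their values are set side by side below and are not independent.

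Among the class B receptors, Cd36 was at 480.1, 476, 461 and 477 TPM in the 4 M0 libraries, at 147, 144, 159 and 168 TPM in non-phagocytic IFN-γ libraries and at 176, 163, 161 and 152 TPM in non-phagocytic IL-10 libraries. Every M0 library was far above every library with a cytokine, and the IFN-γ and IL-10 ranges overlapped. The log2 fold change against M0 was -1.34 (SE 0.05, adjusted p = 1.65e-07) with IFN-γ and -1.55 (SE 0.04, adjusted p = 4.85e-08) with IL-10, which left 39.4% and 34% of the M0 level after scaling. Scarb1 was at 41, 43.1, 41.5 and 41.6 TPM in M0, at 40.8, 35, 33.5 and 35.4 TPM with IFN-γ and at 60.7, 62.3, 66.4 and 65.3 TPM with IL-10. Its IL-10 libraries were above all others, by 0.58 over M0 (SE 0.04, adjusted p = 1.14e-05). With IFN-γ its log2 fold change was 0.06 (95% interval -0.11 to 0.23, adjusted p = 0.533), and -0.21 (adjusted p = 0.0285) without scaling, so its direction there is not settled.

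Among the class A receptors, Msr1 was at 90.7, 91.6, 81.8 and 84.9 TPM in M0, at 49.8, 32, 35.5 and 43.4 TPM with IFN-γ and at 96.2, 104, 93.3 and 89.7 TPM with IL-10. The IFN-γ libraries were below all the others, by -0.85 against M0 (SE 0.13, adjusted p = 0.000623). With IL-10 the difference from M0 was 0.12 (95% interval 0.00 to 0.23, adjusted p = 0.134). Marco went the other way: it was at 0.65, 0.35, 0.77 and 0.87 TPM in M0, at 5.43, 3.68, 4.44 and 4.35 TPM with IFN-γ and at 1.3, 0.88, 0.89 and 1.02 TPM with IL-10. The IFN-γ libraries were above all others, with a log2 fold change against M0 of 1.89 (SE 0.16, adjusted p = 2.04e-05) and a scaled mean of 818% of that in M0. With IL-10 it was 0.27 (95% interval 0.00 to 0.54, adjusted p = 0.136). Marco rested on few reads, about 9 to 23 a library in M0, 20 to 27 in non-phagocytic IFN-γ and 18 to 20 in non-phagocytic IL-10 libraries, if its 1925 nt transcript is the one read.

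Cd68, the lysosomal member, was at 2076, 2076, 2099 and 2077 TPM in M0, at 1392, 1371, 1343 and 1340.1 TPM with IFN-γ and at 1759, 1755, 1819.9 and 1795 TPM with IL-10. The 3 groups did not overlap, and after scaling the changes from M0 were -0.34 (SE 0.03, adjusted p = 9.72e-06) with IFN-γ and -0.24 (SE 0.02, adjusted p = 6.2e-05) with IL-10. Without scaling they were -0.612 and -0.224. Cd14, the endotoxin co-receptor, was at 308, 311, 311 and 313 TPM in M0, at 185, 161, 169 and 179.5 TPM with IFN-γ and at 241, 242, 244 and 233 TPM with IL-10, again with no overlap. It was lower than in M0 by -0.57 (SE 0.05, adjusted p = 2.25e-05) with IFN-γ and by -0.39 (SE 0.02, adjusted p = 4.77e-06) with IL-10. Lrp1, the endocytic receptor, was at 280.0, 300.1, 282 and 303 TPM in M0, at 98.8, 119, 124 and 109 TPM with IFN-γ and at 302, 282, 308 and 293 TPM with IL-10. Its IL-10 range overlapped that of M0 (log2 difference 0.01, 95% interval -0.09 to 0.11), and its IFN-γ libraries were at 46.7% of the M0 level after scaling (-1.10, SE 0.07, adjusted p = 2.71e-06).

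The C-type lectins changed in opposite directions under IL-10. Mrc1 was at 55.6, 53, 52 and 51.6 TPM in M0, at 21.4, 21.8, 22.7 and 25.6 TPM with IFN-γ and at 88.7, 92.4, 91.1 and 87.1 TPM with IL-10. It fell by 0.92 on the log2 scale with IFN-γ (SE 0.07, adjusted p = 8.63e-06) and rose by 0.73 with IL-10 (SE 0.03, adjusted p = 5.79e-07), with no overlap between the groups. Clec7a was at 185, 168, 178 and 168 TPM in M0, at 132, 137, 137 and 125 TPM with IFN-γ and at 50.2, 54.8, 53.1 and 50.8 TPM with IL-10. With IL-10 it was at 29.6% of the M0 level after scaling (-1.74, SE 0.04, adjusted p = 2.37e-08). With IFN-γ it was lower by only -0.13 (SE 0.04, adjusted p = 0.0381). That call was lost without M0 libraries 1, 3 or 4 or IFN-γ libraries 1 or 4 (adjusted p 0.0534 to 0.0996), with median-of-ratios scaling (0.0839), with all 28 libraries in 1 model (0.0592), with a variance weight per group (0.11) and with a replicate block (0.0729).

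**Figure D2:**
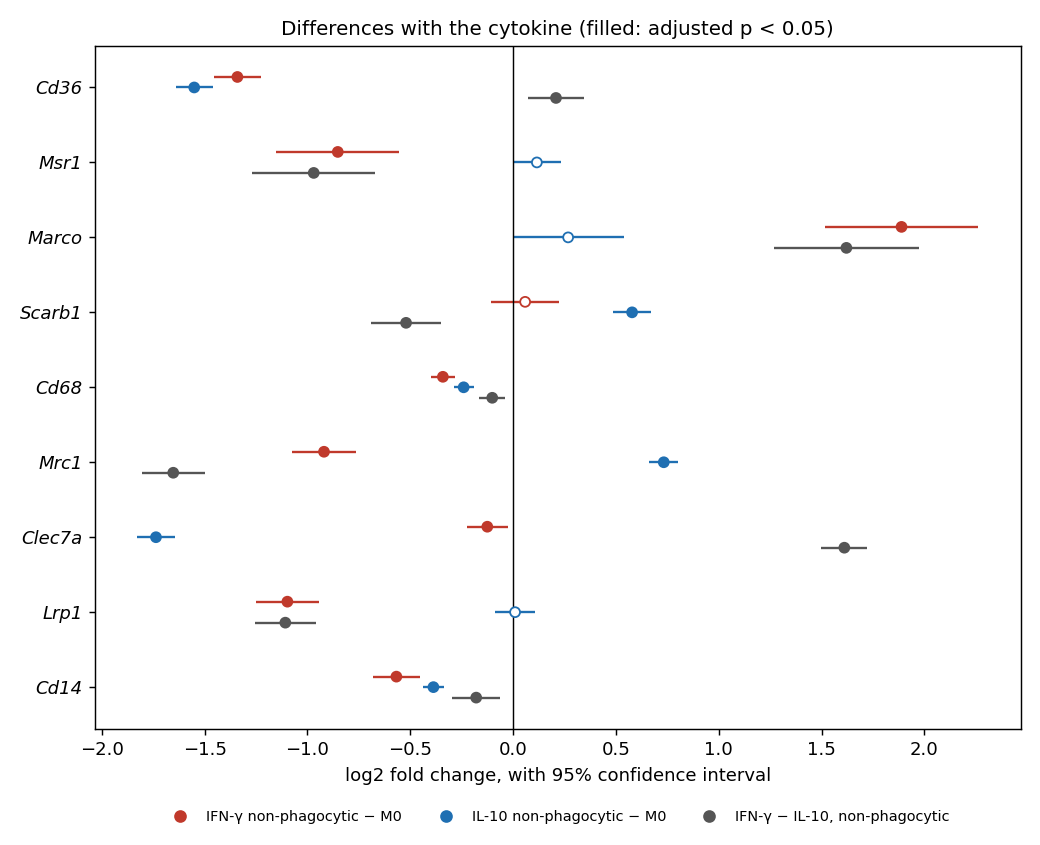
Log2 fold change (horizontal axis) with its 95% confidence interval for each receptor gene (vertical axis), from limma on scaled log2 values of 4 libraries a group. Filled points have an adjusted p under 0.05. In the IFN-γ minus IL-10 difference (gray) Marco and Clec7a lie at 1.62 and 1.61 and Mrc1 at -1.65, and Cd36 was lower than in M0 under both cytokines, by -1.34 and -1.55.

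IFN-γ was compared directly with IL-10 within each uptake class. Depth and marker lists differed along with the cytokine: in non-phagocytic libraries 11 of 11 T cell markers were higher and 4 of 5 tested stromal markers lower with IFN-γ, and their part in the receptor differences was not tested. In non-phagocytic libraries all 9 members were called, 3 higher with IFN-γ and 6 lower, where 51.4% of all genes were called, 25.5% higher and 25.8% lower. Clec7a was higher with IFN-γ by 1.61 (SE 0.05, adjusted p = 3.02e-08) and Marco by 1.62 (SE 0.16, adjusted p = 3.03e-05). Mrc1 was lower by -1.65 (SE 0.07, adjusted p = 1.59e-07), Lrp1 by -1.11 (SE 0.07), Msr1 by -0.97 (SE 0.13) and Scarb1 by -0.52 (SE 0.08). Smaller differences after scaling were those of Cd14 (-0.18, adjusted p = 0.0166, and 0.0505 without IL-10 library 3), Cd68 (-0.10, adjusted p = 0.0138) and Cd36. Without scaling, those of Cd14 and Cd68 were larger, at -0.465 and -0.388. Cd36 was 0.21 higher with IFN-γ (adjusted p = 0.0181), but -0.08 (adjusted p = 0.319) without scaling and with an adjusted p of 0.0541 without IL-10 library 4.

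The phagocytic classes differed between the cytokines as well. In Tconv-phagocytic libraries 3 members were higher with IFN-γ and 6 lower (52.5% of genes called, 26.1% higher and 26.4% lower), and in Treg-phagocytic libraries 4 were higher and 4 lower (38.8% of genes called, 16.6% higher and 22.2% lower). Clec7a was higher with IFN-γ by 1.43 and 1.38 and Marco by 1.75 and 1.74 in the Tconv- and Treg-phagocytic libraries, and Mrc1 was lower by -1.74 and -1.39 and Lrp1 by -0.92 and -1.10. Cd36 was higher with IFN-γ by 0.48 in Tconv-phagocytic libraries (SE 0.06, adjusted p = 0.000159) and by 0.62 in Treg-phagocytic libraries (SE 0.08, adjusted p = 0.000476). Msr1 was not called in the Treg-phagocytic class (-0.62, SE 0.22, adjusted p = 0.0519). There its 4 IFN-γ libraries were at 70.8, 30.1, 47.6 and 47.7 TPM, and without the library at 70.8 TPM (Ax647-1) the difference was -0.80 (adjusted p = 0.011). Cd14 was 0.19 higher with IFN-γ in Treg-phagocytic libraries (adjusted p = 0.0154), where it was -0.03 without scaling, and -0.14 in Tconv-phagocytic libraries (adjusted p = 0.0276), a call lost without Tconv-phagocytic IFN-γ libraries BV421-2 or Ax647-1 or IL-10 libraries BV421-2 or Ax647-2 (0.0513 to 0.0769) and with median-of-ratios scaling (-0.11, adjusted p = 0.0603). In Treg-phagocytic libraries the Cd68 difference of -0.13 (adjusted p = 0.023) was lost without IFN-γ library BV421-1 or IL-10 libraries Ax647-1, Ax647-2 or BV421-1 (0.0509 to 0.0601), and with median-of-ratios scaling it was -0.05 (adjusted p = 0.302). With that scaling Scarb1 also lost its call there (-0.29, adjusted p = 0.0148, against -0.21, adjusted p = 0.0543).

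Treg- and Tconv-phagocytic macrophages were compared to ask whether the identity of the engulfed T cell matters. Under IFN-γ, 5 of the 9 members were higher in the Treg-phagocytic libraries (Cd36, Cd68, Mrc1, Clec7a and Cd14) and 0 were called lower. Of all genes tested, 11.5% were called, 3.25% higher and 8.3% lower. The median log2 fold change of the members was 0.33, against 0.00 over all genes, and the changes were modest: all 5 lay between 0.21 and 0.39, which is 1.16-fold to 1.31-fold. Against non-phagocytic libraries, 3 of the 9 were higher (Cd36, Clec7a and Cd14), where 7.73% of genes were called, 1.56% higher and 6.17% lower. With a replicate block by file number these 3 lost their calls (adjusted p 0.0533 to 0.0889). Against Tconv that block ended the calls of Cd68 (0.0694) and Mrc1 (0.0822). A block by title ended those of Cd36, Cd68, Mrc1 and Cd14 (0.0642 to 0.113). Both comparisons share the 4 Treg-phagocytic libraries.

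Cd36 was at 216, 186, 180.3 and 215 TPM in the IFN-γ Treg-phagocytic libraries, against 159.8, 162, 148 and 167 TPM in the Tconv-phagocytic and 144 to 168 TPM in the non-phagocytic ones. All 4 Treg-phagocytic libraries were above all 8 others, with log2 fold changes of 0.39 against Tconv (SE 0.08, adjusted p = 0.017) and 0.38 against non-phagocytic (SE 0.08, adjusted p = 0.0287). Clec7a was at 184, 149, 162 and 146 TPM in the Treg-phagocytic libraries and at 138, 122, 142 and 131 TPM in the Tconv-phagocytic ones, again without overlap. The differences were 0.33 (SE 0.07, adjusted p = 0.0241) against Tconv and 0.29 (SE 0.06, adjusted p = 0.0318) against non-phagocytic libraries. Cd14 was at 218, 199.9, 204 and 223 TPM, against 190.2, 179, 175 and 183 TPM in the Tconv-phagocytic libraries. It was higher by 0.28 (SE 0.06, adjusted p = 0.021) than with Tconv uptake and by 0.30 (SE 0.07, adjusted p = 0.033) than without uptake, and its Treg-phagocytic libraries were above all the others.

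Cd68 varied little between replicates, at 1457, 1452, 1439.5 and 1473 TPM in Treg-phagocytic and 1365, 1329.6, 1287 and 1297 TPM in Tconv-phagocytic IFN-γ libraries, which did not overlap. The difference was 0.21 (SE 0.04, adjusted p = 0.0167), and 0.11 (SE 0.04, adjusted p = 0.104) against non-phagocytic libraries. Mrc1 was at 28.9, 26.4, 23.5 and 26.1 TPM with Treg uptake and at 21.3, 21.3, 20.6 and 22.4 TPM with Tconv uptake, a difference of 0.35 (SE 0.09, adjusted p = 0.0351). Even the highest of these, 28.9 TPM, was below the lowest M0 library at 51.6 TPM. Marco was highest in this group of all 7, at 6.3, 8.08, 9.14 and 6.39 TPM against 5.22, 4.02, 4.5 and 7.58 TPM, but its difference of 0.50 did not pass (SE 0.21, adjusted p = 0.183), nor did that of 0.65 against non-phagocytic libraries (adjusted p = 0.0687). Scarb1 (0.02, 95% interval -0.16 to 0.20), Lrp1 (-0.22, -0.47 to 0.02) and Msr1 (0.51, -0.01 to 1.03) were not called against Tconv either.

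Several of these calls lay near the threshold and were lost with 1 library left out. Such a fit also rests on fewer libraries, and whether this or the library itself ended a call was not tested. With 1 library left out at a time, between 1 and 6 members were called against Tconv and between 0 and 2 against non-phagocytic libraries, with every one of the 5 and 3 named members staying higher. Cd36 lost its call against Tconv without Tconv library Ax647-1 (0.35, adjusted p = 0.0521), Cd68 without Tconv libraries Ax647-1 or Ax647-2 (0.0552 and 0.0562), Clec7a without Tconv BV421-2 or Ax647-2 or Treg BV421-1 (0.0597 to 0.069) and Cd14 without Tconv BV421-2, Ax647-1 or Ax647-2 (0.0567 to 0.0632). Mrc1 lost it without any of the 4 Tconv libraries or Treg libraries Ax647-1, Ax647-2 or BV421-2 (0.0589 to 0.0925). Treg library Ax647-2 stood apart in several members: it had the lowest Msr1 (30.1 TPM) and the highest Lrp1 (128 TPM) and Scarb1 (46.3 TPM) of its group and was the shallowest of the 28 libraries, at 11.2% relative depth. Without it, Msr1 was higher (0.71, adjusted p = 0.0393) and Lrp1 lower (-0.33, adjusted p = 0.0261) with Treg than with Tconv uptake. Against non-phagocytic libraries, leaving out non-phagocytic libraries 2 or 3 removed all 3 calls (adjusted p 0.0629 to 0.0838), leaving out non-phagocytic 1 or 4 or Treg Ax647-1, BV421-1 or BV421-2 left 1, and leaving out Treg Ax647-2 left 2 (adjusted p of the lost calls 0.0511 to 0.0869).

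Marker lists were read beside these differences. Among genes that IFN-γ is known to induce, Gbp2 was at 47.9 to 75.3 TPM in IFN-γ Treg-phagocytic, 153 to 246 TPM in Tconv-phagocytic and 221 to 281 TPM in non-phagocytic libraries, and Irf1 at 88.5 to 119, 199.5 to 295 and 189 to 213 TPM. Ciita was at 1.82 to 4.83 TPM, below the 8.52 to 10.8 TPM of Tconv-phagocytic libraries, whereas Cxcl9 overlapped (6.72 to 31.5 against 19.9 to 25.7 TPM). With Treg against Tconv uptake, 1 of 11 T cell markers and 1 of 5 tested B cell markers were called higher, 1 of 2 tested dendritic cell markers lower (Clec9a, -1.45, adjusted p = 0.0427), and 0 of 5 Treg, 0 of 4 neutrophil and 0 of 5 stromal markers. Of 10 macrophage markers, which hold no member, 2 were higher and 1 lower. The summed level of the macrophage markers was 19800 to 20200 TPM in Treg-phagocytic, 15600 to 17900 TPM in Tconv-phagocytic and 16200 to 16900 TPM in non-phagocytic IFN-γ libraries. Lyz2 made most of these sums, at 17960 to 18393, 14003 to 16091 and 14559 to 15238 TPM. The part of all these values in the receptor differences was not tested.

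Tconv-phagocytic and non-phagocytic macrophages did not differ detectably in any member under IFN-γ. By limma 0 of 9 were called, with 1 at an unadjusted p under 0.05 (Cd68, -0.10). Over all genes 0.00734% were called, 0% higher and 0.00734% lower, and 0 of 9 were called with all 28 libraries in 1 model or with a variance weight per group. The intervals bound what could have been missed: for Cd36 the log2 difference was -0.01 (95% interval -0.16 to 0.14), for Cd14 0.02 (-0.13 to 0.16) and for Clec7a -0.04 (-0.18 to 0.09), whereas for Msr1 they ran from -0.62 to 0.12 and for Marco from -0.33 to 0.62.

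**Figure D3:**
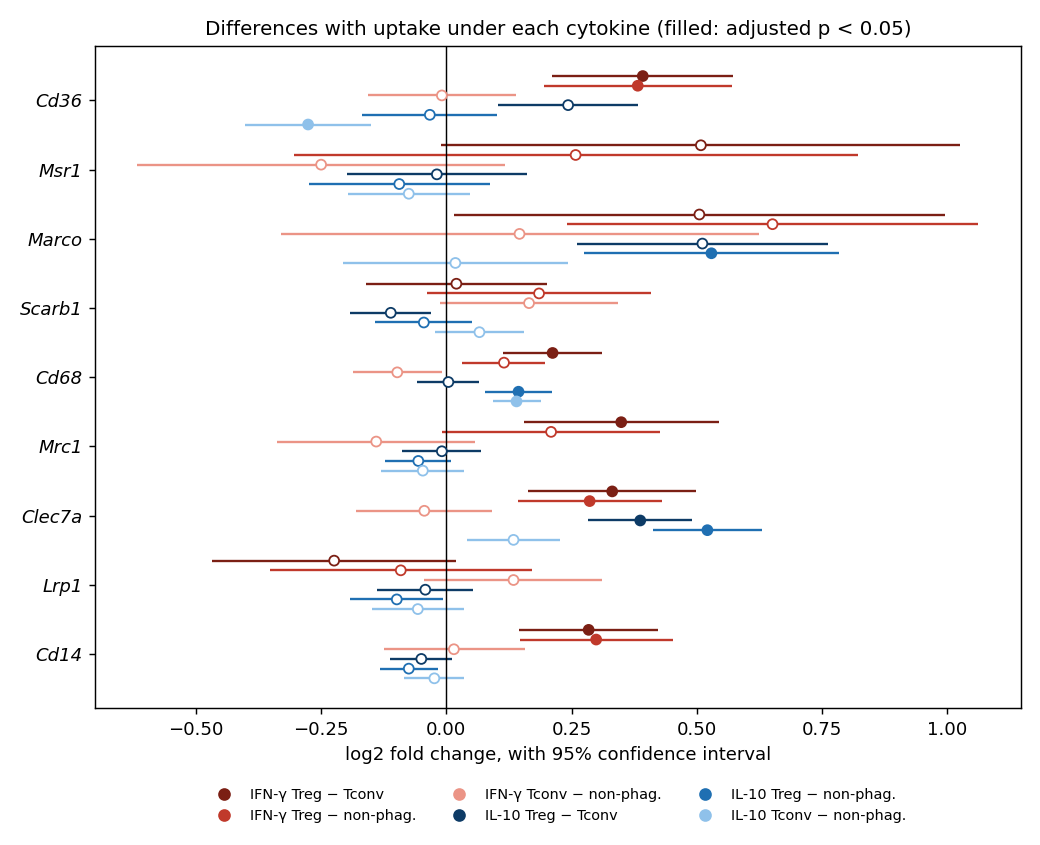
Log2 fold change (horizontal axis) with 95% confidence interval for each receptor gene (vertical axis) in the 6 uptake comparisons, red shades under IFN-γ and blue shades under IL-10, 4 libraries a group. Filled points have an adjusted p under 0.05. Clec7a is filled in all 4 comparisons with Treg uptake, and Msr1, Scarb1 and Lrp1 in none.

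Under IL-10, Clec7a alone of the 9 members was higher with Treg than with Tconv uptake, where 1.38% of genes were called, 0.455% higher and 0.924% lower. Against non-phagocytic libraries, 3 members were higher with Treg uptake (Marco, Cd68 and Clec7a; 11.3% of genes called, 6.82% higher and 4.51% lower). With Tconv uptake 1 was higher (Cd68) and 1 lower (Cd36; 6.09% of genes called, 4.31% higher and 1.78% lower). These comparisons share the libraries of a group in pairs.

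Clec7a was at 65.5, 72.8, 72.5 and 74.8 TPM in the IL-10 Treg-phagocytic libraries, at 52.2, 54.2, 57.4 and 53.2 TPM in the Tconv-phagocytic and at 50.2 to 54.8 TPM in the non-phagocytic ones. All 4 Treg-phagocytic libraries were above all 8 others. It was 0.39 higher than with Tconv uptake (SE 0.05, adjusted p = 0.00497) and 0.52 higher than without uptake (SE 0.05, adjusted p = 0.000445), and no left-out library changed either call. With a replicate block by title, the call against Tconv was lost (adjusted p = 0.072). The level stayed at 42.7% of that in M0 after scaling. Marco was at 1.68, 1.77, 1.64 and 2.36 TPM with Treg uptake, 0.79, 1.2, 1.04 and 0.93 TPM with Tconv uptake and 0.88 to 1.3 TPM without. The Treg-phagocytic libraries were above the rest, by 0.53 over non-phagocytic ones (SE 0.11, adjusted p = 0.0198, and 0.0518, 0.06 and 0.0505 without non-phagocytic libraries 2, 3 or 4) and by 0.51 over Tconv-phagocytic ones (SE 0.11, adjusted p = 0.0735). These levels rest on about 18 to 40 reads a library. With a replicate block by file number, Marco lost its call against non-phagocytic libraries (adjusted p = 0.0672).

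Cd68 was 0.14 higher than in non-phagocytic IL-10 libraries with both kinds of uptake (adjusted p = 0.0156 with Treg and 0.00687 with Tconv). A replicate block by file number ended both calls (adjusted p = 0.0732 and 0.0627). The ranges of Cd68 were 1797 to 1942 TPM with Treg uptake, 1841 to 1869.8 TPM with Tconv uptake and 1755 to 1819.9 TPM without. As deposited, the Treg-phagocytic and non-phagocytic ranges thus overlapped, and without scaling the differences were 0.06 (adjusted p = 0.136 and 0.081). Cd36 was at 132, 128, 133 and 116 TPM with Tconv uptake, below the 152 to 176 TPM of the non-phagocytic libraries (-0.28, SE 0.05, adjusted p = 0.0232). That call was lost without non-phagocytic libraries 1, 2 or 3 or Tconv library BV421-2 (adjusted p 0.0545 to 0.0636). In Treg-phagocytic libraries Cd36 was at 139, 161, 160.4 and 144 TPM, above all Tconv-phagocytic libraries, with a difference that did not pass (0.24, SE 0.06, adjusted p = 0.119). Mrc1, Msr1, Scarb1, Lrp1 and Cd14 were not called in any of the 3 IL-10 comparisons, where the intervals of Mrc1 lay within -0.13 to 0.07. Without scaling, Mrc1 (-0.14), Lrp1 (-0.18) and Cd14 (-0.15) were called lower with Treg uptake than without (adjusted p 0.00595 to 0.0193), and Cd14 (-0.11, adjusted p = 0.0468) with Tconv uptake.

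In the same IL-10 comparisons, 11 of 11 T cell markers were higher in Treg-phagocytic than in non-phagocytic libraries (summed level 177 to 208 against 81.5 to 94.3 TPM), and all 5 tested stromal markers were lower with Treg than with Tconv uptake. With Tconv uptake against none, 6 of 11 T cell markers and 4 of 5 tested stromal markers were higher. With Treg uptake against none, 4 of 5 tested stromal markers were lower. The part of these values in the receptor differences was not tested.

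Whether the differences between uptake classes were unlike under the cytokines was tested directly. For Treg against Tconv uptake, 3 members had a larger difference under IFN-γ than under IL-10: Cd14 by 0.33 (SE 0.07, adjusted p = 0.00408), Mrc1 by 0.36 (SE 0.09, adjusted p = 0.011) and Cd68 by 0.21 (SE 0.05, adjusted p = 0.0111). Of all genes 13.1% were called there, 4.14% higher and 8.93% lower. For Treg uptake against none, Cd36 (0.42, SE 0.10, adjusted p = 0.0187) and Cd14 (0.37, SE 0.07, adjusted p = 0.00359) had the larger difference under IFN-γ, where 9.53% of genes were called, 1.89% higher and 7.64% lower. For Tconv uptake against none, Cd68 differed the other way (-0.24, SE 0.04, adjusted p = 0.00962; 1.71% of genes called, 0.205% higher and 1.5% lower), and without scaling by -0.10 (adjusted p = 0.153). Clec7a and Marco, both called higher with Treg uptake than without under IL-10, did not differ detectably between the cytokines for Treg against Tconv (-0.06, 95% interval -0.25 to 0.14, and -0.01, -0.54 to 0.52). Marco was not called for Treg against Tconv under either cytokine. Its difference of differences ran from -0.27 to 0.15 over the alternatives, so it does not show equal differences. Without IFN-γ Treg-phagocytic library Ax647-2, Msr1 (0.73, adjusted p = 0.0127) and Lrp1 (-0.29, adjusted p = 0.0219) were called as well. For Treg uptake against none, Mrc1 (0.27, adjusted p = 0.0989) was called without IFN-γ non-phagocytic library 4 or Treg-phagocytic library BV421-1 (0.0268 and 0.0291) and Clec7a (-0.23, adjusted p = 0.0996) without Treg-phagocytic library Ax647-1 (-0.29, adjusted p = 0.0252). Cd68 did not differ detectably between the cytokines for Treg uptake against none (-0.03, 95% interval -0.13 to 0.07, adjusted p = 0.778). Its call for Treg against Tconv thus stands beside a cytokine difference for Tconv uptake against none, and none was detected for Treg uptake against none. The 3 calls for Treg against Tconv and the 2 for Treg uptake against none stayed past the threshold with each library left out in turn.

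**Figure D4:**
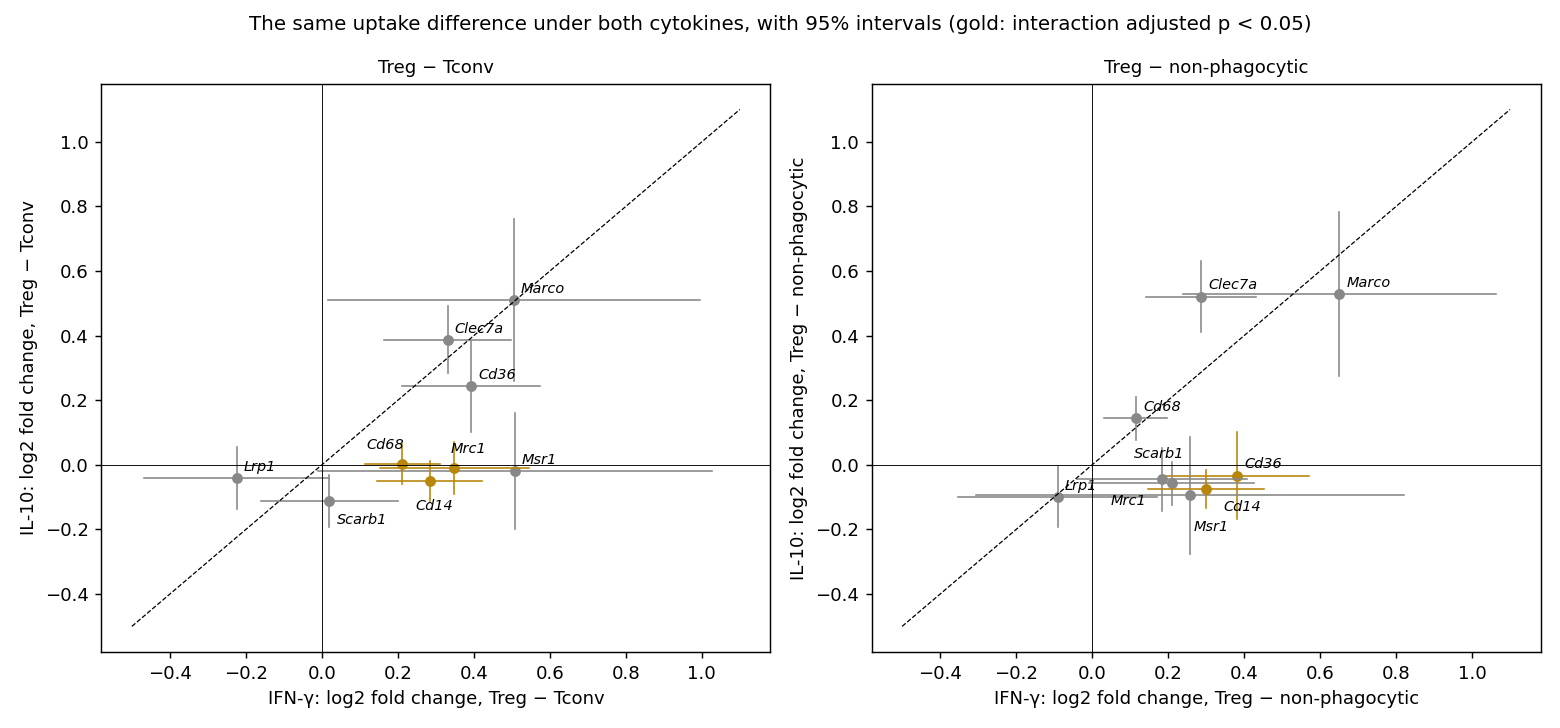
Uptake difference of each receptor gene under IFN-γ (horizontal axis, log2 fold change) and under IL-10 (vertical axis), for Treg minus Tconv (left) and Treg minus non-phagocytic (right), with 95% intervals and the line of equality (dashed). Gold genes differ between the cytokines at an adjusted p under 0.05: Cd14, Mrc1 and Cd68 on the left and Cd36 and Cd14 on the right, which lie near 0 under IL-10.

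Other genes of the receptor families were taken from fixed lists, of which the 3 called genes with the largest change are named. Their counts stand beside the shares of all genes: 26.4% higher and 26.7% lower for IFN-γ against M0, 13.7% and 12.9% for IL-10 against M0, and 25.5% and 25.8% for IFN-γ against IL-10 without uptake. Of 9 tested genes among 14 other scavenger receptors, 1 was higher and 7 lower in non-phagocytic IFN-γ libraries than in M0, and 6 were higher and 2 lower in non-phagocytic IL-10 libraries. Cd5l, a secreted scavenger receptor of macrophages, was at 211 ± 14 TPM (SD, n = 4) in non-phagocytic IFN-γ, 1360.0 ± 21.5 TPM in non-phagocytic IL-10 and 627 ± 9.64 TPM in M0 libraries. With Treg uptake under IFN-γ Cd5l was at 261 ± 6.56 TPM, against 211 ± 10.7 TPM with Tconv uptake (0.38, SE 0.05, adjusted p = 0.00421). Stab1 was at 55.2 ± 5.89 TPM with IFN-γ, 102 ± 2.16 TPM with IL-10 and 79.9 ± 2.29 TPM in M0. Colec12 was lower with IFN-γ (2.01 ± 1.33 TPM) than in M0 (5.43 ± 0.257 TPM).

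Of 16 tested C-type lectin receptors among 21, 6 were higher and 4 lower with IFN-γ than with IL-10 in non-phagocytic libraries, where 51.4% of all genes were called. Clec12a, an inhibitory receptor for uric acid crystals, was like Clec7a higher with IFN-γ (135 ± 8.48 against 47.9 ± 5.35 TPM, SD, n = 4), and Clec4a1 lower (72.4 ± 9.17 against 231 ± 13 TPM). Clec9a, a receptor of dendritic cells for dead cells that is also on the dendritic cell marker list, was at 5.65 ± 3.55 TPM in non-phagocytic IFN-γ and 0.12 ± 0.02 TPM in M0 libraries. In the LDL receptor family 10 of 13 genes were tested, and 2 were higher and 7 lower with IFN-γ than in M0, where 53.1% of all genes were called. Like Lrp1, Lrp5 (5.79 ± 0.65 against 14.1 ± 0.64 TPM) and Sorl1 (9.34 ± 2.09 against 17.6 ± 1.75 TPM) were lower, and Lrp8 was higher (4.99 ± 0.92 against 3.08 ± 0.97 TPM).

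Of 15 tested partners and adaptors (16 listed), 5 were higher and 6 lower with IFN-γ than with IL-10 in non-phagocytic libraries (51.4% of all genes called). Tlr4, to which Cd14 hands endotoxin, was at 5.33 ± 0.22 TPM with IFN-γ and 25.2 ± 0.66 TPM with IL-10, a log2 difference of -1.79 (SE 0.08, adjusted p = 2.62e-07), beside -0.18 for Cd14. Tlr2 was at 9.96 ± 1.5 and 43.5 ± 1.7 TPM. Prkcd, a kinase of the Clec7a pathway, was at 844 ± 61.5 TPM without uptake and 910 ± 117 TPM with Tconv uptake under IFN-γ, but at 313 ± 23.6 TPM with Treg uptake (-1.46 against Tconv, SE 0.10, adjusted p = 0.000626).

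Another list held lipid genes linked to PPARγ, the factor that controls Cd36, and Pparg itself. All 7 genes on it were tested, and 4 were lower and 2 higher with IFN-γ than in M0 (26.7% and 26.4% of all genes). In non-phagocytic IL-10 libraries 5 were lower and 1 higher than in M0 (12.9% and 13.7% of all genes). Under IL-10, 2 were higher with Treg than with Tconv uptake and 0 lower (0.455% and 0.924% of all genes). Under IFN-γ, 4 were higher with Treg than with Tconv uptake and 0 lower, where 3.25% of all genes were higher and 8.3% lower. Plin2, a lipid droplet protein, was at 546 ± 31.2 TPM in non-phagocytic IFN-γ and 1681 ± 86.3 TPM in M0 libraries, and it was at 631 ± 44.3 TPM with Treg and 542 ± 43.5 TPM with Tconv uptake (0.29, SE 0.07, adjusted p = 0.0391). Angptl4 (3.03 ± 0.52 against 17.8 ± 0.63 TPM) and Cpt1a (17.3 ± 2.02 against 63.2 ± 3.04 TPM) were lower with IFN-γ than in M0, as Cd36 was.

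The genes most like each member over the 28 libraries were ranked by Pearson's r of log2 values among 8729 genes of at least 5 TPM on average. The libraries share depth and cytokine group, which set most of these values, so r is a description. Mrc1 was most like Cd5l (0.993), Igsf6 (0.991) and Spp1 (0.988). Lrp1 was nearest to Tpcn2 (0.981), Smarcc2 and Sh3pxd2b (both 0.978), Clec7a to Cd9 (0.971), Esd (0.960) and St3gal5 (0.954), and Cd36 to C77080 (0.968), Atp6v0d2 (0.959) and Lpl (0.956). The genes nearest to Marco were Rpl35 (0.972), Rps27a and Sem1 (both 0.971). For Msr1 they were Wdr41 (0.944), Mvb12b (0.940) and Dolk (0.938), for Scarb1 Ifitm2 (0.943), Zc3h12d (0.942) and C1qa (0.939), for Cd68 Slc15a3 (0.940), Pld3 (0.934) and Cd84 (0.924), and for Cd14 Arsb (0.948), Gsto1 (0.917) and Rnf128 (0.903).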

How the data were processed

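RNA of 28 libraries was analysed from the deposited TPM, which per the file headers are given per Ensembl gene ID. Per the submitters' processing notes STAR, RSEM and mm10 were used, with roles and versions not given in the sources used here, and per the labels' protocols the libraries were strand-specific. Multi-mapped reads of related genes may be shared between them by such estimates. Of 55487 gene IDs, 55141 were matched to a symbol (GENCODE vM21). No 2 libraries held identical values. The members and gene lists were chosen with earlier results of these data known.

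TPM were divided by a trimmed mean of ratios (30% of ratios and 5% of levels trimmed from each end), 1 was added and log2 taken. Genes that reached 1 TPM in 4 or more libraries were tested with limma 3.58.1 (R 4.3.3; lmFit, eBayes with trend, two-sided), fitting only the groups compared, because spread differed between groups. There were 11 comparisons and 3 differences of differences, with Benjamini-Hochberg adjustment in each over all genes. The files hold no counts. Relative depth was read from 14527 genes with 1 transcript of 500 to 2000 nt, whose low values fall on multiples of 1 read (87.6% to 91.1% within 0.15 reads, against 30% by chance). All members are named, with 3 genes a list by largest called change (at least 5 TPM in the higher group). One gene of a marker list and one motif are not reported here. Alternatives covered scaling, pseudocount, filter, model, block, dye and left-out libraries.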

Additional observations from a re-analysis of the deposited data

Results flagged for a closer look

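In 2 of 63 sets of 4 libraries (9 members in 7 groups), 1 library lay far from the other 3 by Dixon's criterion, which chance reaches in about 1 of 20. Scarb1 was at 46.3 TPM in IFN-γ Treg-phagocytic library Ax647-2, against 38.6 to 39.2 TPM in the other 3, and Cd68 was at 2099 TPM in M0 library 3, against 2076 to 2077 TPM.

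Of 27 differences of differences between the cytokines, 6 passed the threshold (limma). They were, as IFN-γ minus IL-10 on the log2 scale, Cd68 0.21, Mrc1 0.36 and Cd14 0.33 for Treg against Tconv uptake, Cd36 0.42 and Cd14 0.37 for Treg uptake against none, and Cd68 -0.24 for Tconv uptake against none. Of all genes 13.1%, 9.53% and 1.71% were called there, in the same order. The differences of differences share libraries and are not independent.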

How the results depend on the processing

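Of 2412 values of single members under the alternatives, 2279 stayed on their side of the threshold (of which 50, never called, changed sign). A further 96 lost a call and 34 gained one, with the sign kept. The last 3 changed sign without scaling, with a call in 1 fit and none in the other. Called only with scaling were Cd36, IFN-γ against IL-10 without uptake (-0.076 unscaled, adjusted p = 0.319), and Cd14, the same with Treg uptake (-0.031, adjusted p = 0.599). Scarb1, IFN-γ against M0, was called only without scaling (-0.206, adjusted p = 0.0285). The members called under IFN-γ for Treg against Tconv (5) became 3 without scaling, 2 without a filter, 8 with all 28 libraries in 1 model and 1 to 6 with 1 library left out. Those for Treg against no uptake (3) became 0 without a filter, 7 with all libraries in 1 model and 0 to 2 with 1 library left out. Under IL-10, Treg against Tconv (1) became 3 with variance weights. Treg against no uptake (3) became 5 without scaling. Tconv against no uptake (2) became 1 without a filter and 1 to 2 with 1 library left out. The differences of differences gave 3 to 5 for Treg against Tconv with 1 library left out, and 4 in place of 2 for Treg against no uptake with all libraries in 1 model. Fits without a filter test more genes. The other causes were not tested.

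No label says that a number marks a shared animal or day, and the main fits hold no block. For IFN-γ Treg and Tconv, libraries of the same file number correlated at 0.006 to 0.076, and 4 of 4 correlated best with their own number. By title dye and number the correlations there were -0.034 to 0.02, and 0 of 4 did so. For IL-10 Treg and Tconv, 0 of 4 did so by file number and 1 of 4 by title. With a replicate block by file number, 3 members were called for IFN-γ Treg against Tconv, 0 for Treg and 0 for Tconv against no uptake, and 1, 1 and 1 under IL-10. For IFN-γ against IL-10 the block ended the calls of Cd36 and Cd68 without uptake (adjusted p = 0.0541 and 0.0592), of Cd68 with Treg uptake (0.0772) and of Cd14 with Tconv uptake (0.0627). With a block by title, 1 and 0 were called for Treg against Tconv under IFN-γ and IL-10.

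Counts over all genes moved too. For IFN-γ Treg against Tconv 1574 were called (28.1% higher), 15.1% higher when unscaled and 42.8% with median-of-ratios scaling, 967 without a filter, 4085 with all libraries in 1 model and 885 or 834 with a block. For IFN-γ Treg against no uptake it was 1053 (20.1% higher, 36.7% with median-of-ratios scaling), then 680, 3512 and 404. For IFN-γ Tconv against no uptake it was 1, and 5 with pseudocount 0.1, 122 with all libraries and 0 with the 5 TPM filter, variance weights or the block. For IL-10 Treg against Tconv it was 188, and 122 with the 5 TPM filter, 107 with all libraries, 360 with variance weights and 63 or 82 with a block. The counts for IL-10 Treg (1544, 60.2% higher) and Tconv (830, 70.8% higher) against no uptake were 620 and 241 with all libraries and 797 and 264 with the block, and 26.9% and 25.4% were higher without scaling. IL-10 against M0 (3627) gave 1808 with all libraries. Without scaling the share higher of IFN-γ against IL-10 was 29.9%, 24.4% and 37.5% without uptake, with Treg and with Tconv uptake (49.7%, 42.8% and 49.7% scaled), and 31.5% (49.7%) against M0. The differences of differences had 31.7%, 19.8% and 12% higher, and 19.2%, 34.9% and 64.5% without scaling, with 43.2% and 34.8% for the first and second with median-of-ratios scaling. The third had 233 calls, and 121 without scaling and 113 with the block. With 1 library left out, the counts over all genes were 906 to 1505, 640 to 829 and 1 to 4 under IFN-γ and 99 to 174, 944 to 1383 and 485 to 615 under IL-10 (Treg against Tconv, Treg and Tconv against no uptake), and 142 to 335 for the third difference of differences. The lowest of these were without IFN-γ Tconv Ax647-1, non-phagocytic 4 and non-phagocytic 1, IL-10 Tconv BV421-1, non-phagocytic 3 and again non-phagocytic 3, and IL-10 Tconv Ax647-2. Marco rested on as few as 9 reads in a library.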
